A study of Mus musculus with 6 samples.

Results

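The clustered protocadherins are cell-surface adhesion proteins whose genes lie side by side in an alpha, a beta and a gamma cluster. All rows of the count tables whose symbol names a gene of these clusters were taken, which gave 58 of 42396 genes. They comprised 14 alpha, 22 beta and 22 gamma genes. All 58 lie on chromosome 18 between bases 36930285 and 37841873 (GRCm38), and the deposited positions of all 58 were the same as in the RefSeq table of that build. GENCODE's annotation of GRCm38 held 57 of them under the same symbol, each on the plus strand.

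RNA was sequenced from primary cultures of ventral midbrain of wild-type mouse embryos at embryonic day 14, in 6 libraries. In the circRmst knockdown (3 libraries) the cells received a lentivirus, vector pll3.7, with the hairpin shRmstI. Its target, circRmst, is a circular RNA of the Rmst gene. In the scramble control (3 libraries) they received the same vector with the hairpin Scr2. Both groups were infected on the day of plating at a multiplicity of 5 with 150000 cells per well, 2 to 3 wells of a condition were harvested at 3 days in vitro, and the stated question is what the knockdown does to gene expression, next to the form and migration of neurons. The labels speak of 3 independent cultures but do not say which libraries share one, so p-values measure the spread between these libraries.

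The counts assigned to genes ran from 35256611 to 43646521 per knockdown library and from 27248934 to 41982557 per control library. The labels call the cells dopamine neurons, but markers of several cell types were present. The 10 dopamine neuron markers on the list (Th, Slc6a3 and Pitx3 among them) summed to between 519 and 617 CPM in knockdown libraries and between 539 and 635 CPM in control libraries. CPM is the count scaled to a common library size, with TMM factors, and is compared here between libraries, not between genes. The 10 general neuron markers summed to between 5500.2 and 6552 CPM in knockdown libraries and between 5966 and 6337 CPM in control libraries, and 11 markers of astrocytes and radial glia to between 2004 and 2202 CPM in the knockdown and between 1831 and 2225 CPM in the control. Circular RNA was not analysed here, so the depth of the knockdown was not checked.

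A neuron uses only some of its clustered protocadherin promoters, and the choice among the alternate genes is largely random from cell to cell. It depends on the DNA-binding protein CTCF, on cohesin, which folds the promoters onto distant enhancers, and on DNA methylation. The proteins form complexes that bind the same combination on another membrane, by which sister branches of a neuron recognise and avoid each other. The C-type genes, at the ends of the alpha and gamma clusters, are used more evenly across cells. In the alpha and gamma clusters a variable first exon, which encodes the whole extracellular part, is joined to constant exons that encode the shared end of the protein. The beta genes have no constant exons.

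That structure limits what a count of 1 gene can hold. In GENCODE's annotation 3 constant exons, 2860 bases together, were shared by the 13 alpha genes found there. Another 3, with 2119 bases, were shared by all 22 gamma genes. The first exon of Pcdhac2, for comparison, has 3028 bases and that of Pcdhgc3 has 2568. A read within a constant exon cannot be assigned to 1 gene, and the sources used here do not say how such reads were counted. They were not counted for every gene with the exon, since Pcdha4 and Pcdha7 had 0 counts in all 6 libraries. All 22 beta genes had a transcript of 1 exon, so their counts are free of that limit.

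Of the 58 genes, 55 passed the filter on low counts. The other 3 were the alpha genes Pcdha4, Pcdha6 and Pcdha7. Pcdha4 and Pcdha7 were listed at 0 counts in all 6 libraries, and Pcdha6 had 3, 2 and 14 counts in knockdown replicates 1, 2 and 3, against 11, 9 and 2 counts in control replicates 1, 2 and 3. The FPKM tables (fragments per kilobase and per library size) listed the same genes well above 0. Pcdha4 was at 2.18, 3.01 and 2.78 FPKM in the knockdown and 2.62, 2.93 and 2.06 FPKM in the control. Each of the 3 genes has an annotated read-through gene over it, Gm37013, Gm38666 and Gm38667, which RefSeq also lists as Pcdha4-g, Pcdha6-g and Pcdha7-g. These start 41 bases before Pcdha4, 6 bases after the start of Pcdha6 and 9 bases before Pcdha7, and all 3 end at base 37841873, the end of the gamma cluster. The read-through genes themselves had between 0 and 6 counts in any library.

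The FPKM of such a pair was divided between both genes differently from library to library. Pcdha7 had 1.98, 4.76 and 3.61 FPKM in knockdown replicates 1, 2 and 3, against 3.94, 4.47 and 3.67 FPKM in control replicates 1, 2 and 3. Gm38667 had 3.62, 1.04 and 2.00 FPKM in the knockdown, against 0.730, 0.596 and 1.02 FPKM in the control. Knockdown replicate 1 was thus lowest for Pcdha7 and highest for Gm38667. Added together, the pair was at 5.60, 5.80 and 5.61 FPKM in the knockdown and 4.67, 5.07 and 4.70 FPKM in the control. The sums did not overlap between the groups, with a ratio of 1.18 for knockdown over control. For Pcdha6 and Gm38666 the sums were 4.04, 4.11 and 4.24 FPKM in the knockdown and 3.75, 3.60 and 3.79 FPKM in the control, and these did not overlap either. For Pcdha4 and Gm37013 they were 4.32, 4.47 and 4.39 FPKM in the knockdown and 4.46, 4.96 and 3.67 FPKM in the control, which overlapped. For scale, 2.28% of all genes tested were higher in the knockdown without overlap, but in CPM, a different measure from these sums. The sums of the pairs were formed after the values were seen and carry no test.

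**Figure D1:**
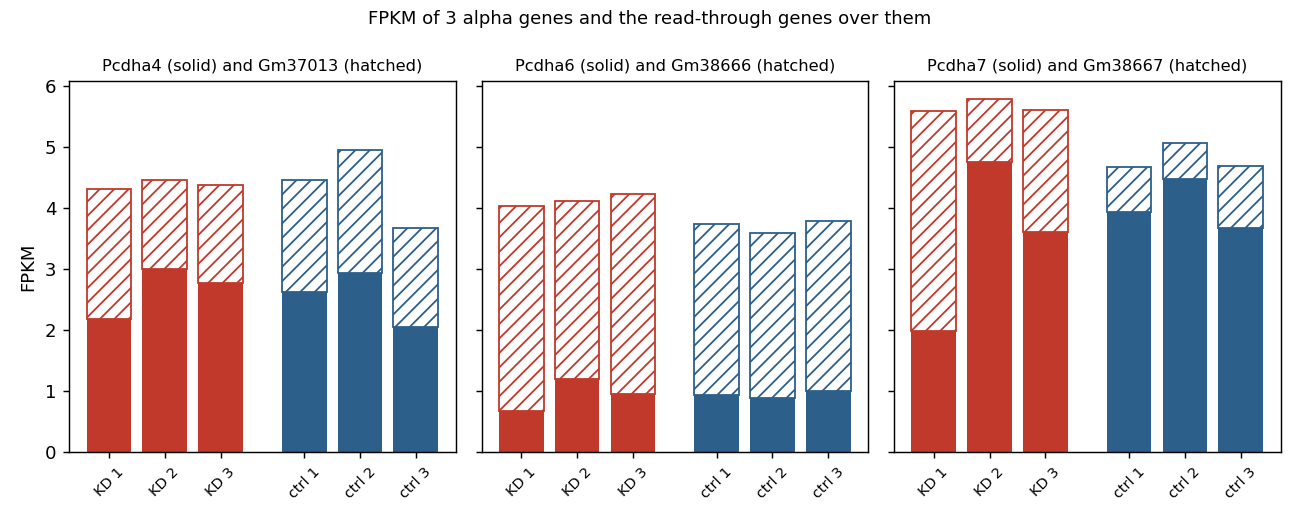
FPKM (y axis) of Pcdha4, Pcdha6 and Pcdha7 (solid) stacked with the read-through gene over each (hatched) in the 3 knockdown (KD) and 3 control (ctrl) libraries. For Pcdha7 the stacks reach 5.60 to 5.80 FPKM in the knockdown and 4.67 to 5.07 FPKM in the control, while the solid part changes from library to library.

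Nearly all clustered protocadherins were expressed in these cultures, most of them at a low level per gene. The 6-library mean ran from 0.0738 FPKM for Pcdhb1 to 23.3 FPKM for Pcdhgc3, with a median of 2.57 FPKM over the 58 genes. Only 5 genes had a mean under 1 FPKM, namely Pcdha1, Pcdha6, Pcdha8, Pcdhb1 and Pcdhb13. Pcdhb1 was the lowest of all, with between 5 and 15 counts in any library. Pcdha6 is taken here without Gm38666, with which it summed to between 3.60 and 4.24 FPKM. Levels correlated closely between libraries. Over the 58 genes the Pearson correlation of log2(FPKM + 0.1) between 2 libraries ran from 0.96 to 0.99 in the 15 pairs, a description across genes that are not independent of each other.

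The C-type genes held the highest levels. Pcdhgc3, which in mice is linked to branching of cortical dendrites, was at 22.3, 24.6 and 22.6 FPKM in knockdown replicates 1, 2 and 3 and at 24.0, 22.5 and 24.0 FPKM in control replicates 1, 2 and 3. Its lowest library lay above the highest of every other member. Pcdhgc4, which mouse neurons need to survive, was next, at 11.4, 14.5 and 12.1 FPKM in the knockdown and 12.7, 13.9 and 12.01 FPKM in the control. Pcdhac2, which serotonergic axons of the mouse need in order to spread evenly, followed with 7.14, 8.49 and 8.56 FPKM in the knockdown and 8.08, 7.44 and 7.06 FPKM in the control. It could not be told from Pcdhga11 (mean 7.60 FPKM) and Pcdhgb6 (mean 7.48 FPKM), whose libraries overlapped with its own. The remaining C-type genes were low. Pcdhac1 averaged 1.51 ± 0.340 FPKM in the knockdown and 1.41 ± 0.109 FPKM in the control, and Pcdhgc5 1.65 ± 0.146 FPKM and 1.79 ± 0.258 FPKM (SD, n = 3 each).

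The C-type share of each cluster overlapped between the groups. The 5 C-type genes held 24.4% ± 0.667 of the summed FPKM of all members in the knockdown and 24.8% ± 0.781 in the control (SD, n = 3 each). Within the gamma cluster the 3 C-type genes held 35.4%, 35.6% and 34.1% in knockdown replicates 1, 2 and 3 and 35.6%, 34.96% and 36.5% in control replicates 1, 2 and 3. Within the alpha cluster the 2 C-type genes held 23.5% ± 0.718 in the knockdown and 23.3% ± 0.819 in the control.

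Among the alternate genes, the gamma A class had the highest median FPKM and the beta class the lowest. Reads of the shared constant exons limit this comparison, since the beta genes have no such exons. The alpha median takes Pcdha4, Pcdha6 and Pcdha7 without their read-through genes. The median of the 6-library means was 3.56 FPKM over 12 gamma A genes, 2.55 FPKM over 7 gamma B genes, 2.79 FPKM over 12 alternate alpha genes and 1.71 FPKM over 22 beta genes. The highest gamma A genes were Pcdhga11 and Pcdhga10 (mean 4.77 FPKM), and the highest gamma B genes Pcdhgb6 and Pcdhgb7 (mean 3.93 FPKM). Taken without read-through genes, Pcdha5 (mean 3.82 FPKM) and Pcdha7 (3.74 FPKM) led the alternate alpha genes, with the division of Pcdha7 noted above. With Gm38667 added, Pcdha7 was at 4.67 to 5.80 FPKM, above Pcdha5 in every library. Pcdhb17 and Pcdhb20 led the beta genes, at 4.47 and 3.98 FPKM. Genes farther along the cluster were on the whole higher in the beta and gamma A classes, with a Spearman correlation between position and mean FPKM of 0.66 over 22 beta genes and 0.66 over 12 gamma A genes. Over the 12 alternate alpha genes it was 0.11 and over the 7 gamma B genes 0.18. These correlations describe genes of the same libraries and carry no p.

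**Figure D2:**
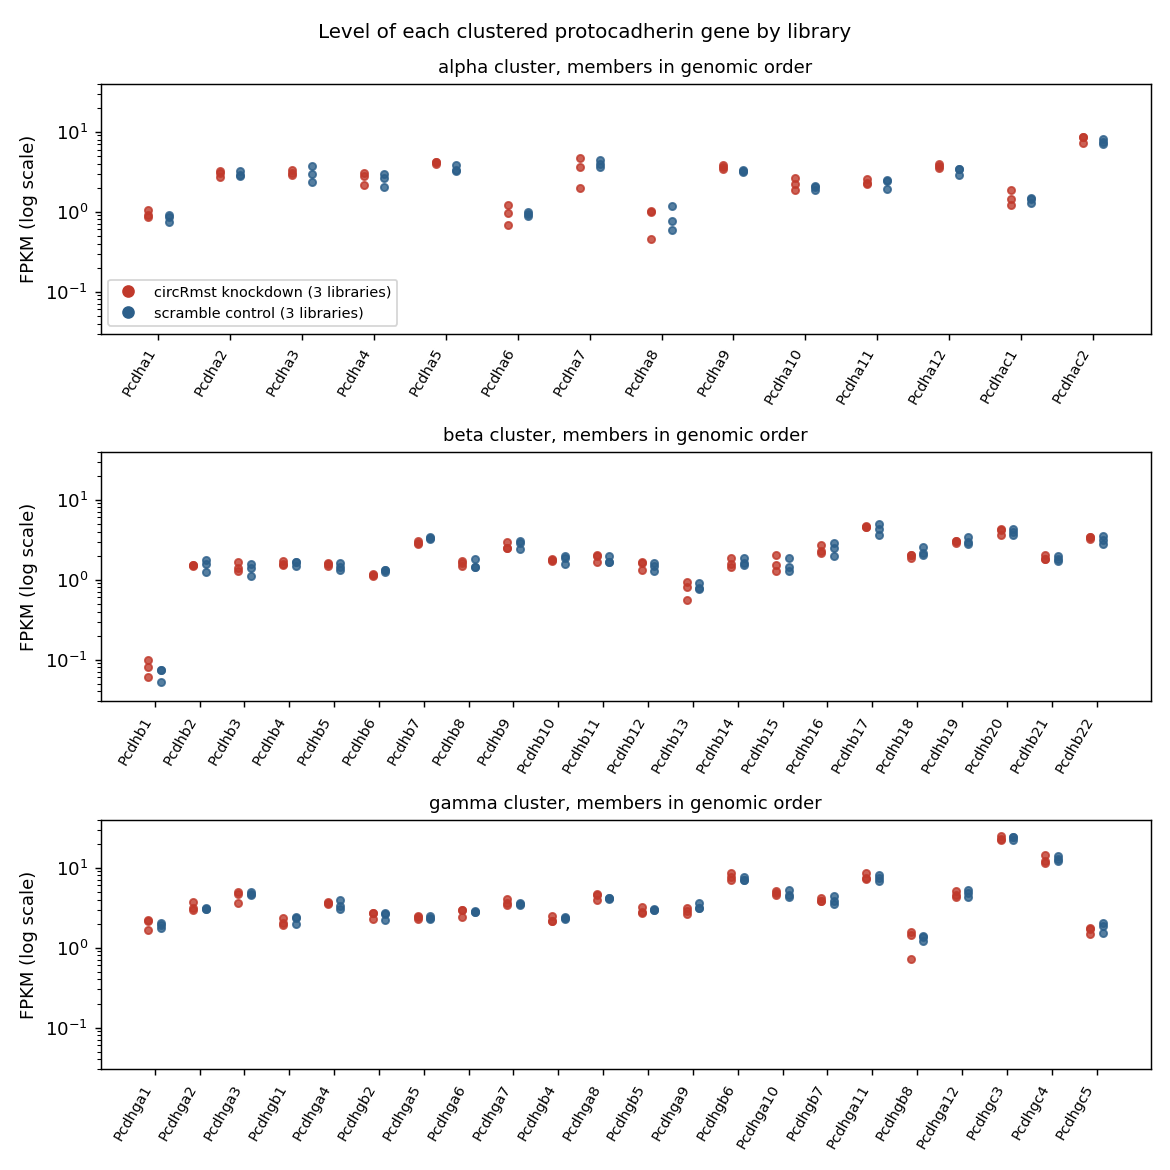
FPKM of each clustered protocadherin gene on a log scale (y axis), with the genes of the alpha, beta and gamma clusters in genomic order (x axis), for 3 knockdown and 3 control libraries (1 point per library). Pcdhgc3 and Pcdhgc4 stand highest, Pcdhb1 lowest, and the points of the groups lie over each other for most genes.

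No clustered protocadherin differed between knockdown and control at the threshold. In edgeR's quasi-likelihood test over 17439 genes, 0 of the 55 members had an adjusted p under 0.05, where 0% of all genes tested did. At an unadjusted p under 0.05 there was 1 of the 55 (1.82%), where 1.1% of all genes tested had one. That gene, Pcdha5, was higher in the knockdown, as were 0.378% of all genes at that limit. The count moved with single libraries. It was 4 of 56 without knockdown replicate 2, where 404 of all 17857 genes tested had such a p. Without knockdown replicate 3 it was 2 of 54, where 451 of all 17706 genes had one. Without control replicate 3 it was 0 of 56, where 198 of all 17786 genes had one. DESeq2 and limma voom also called 0 members, with 1 each at an unadjusted p under 0.05. In 5 of the 55 members (9.09%) there was no overlap in CPM between the groups, where this held for 5.2% of all genes tested. Of the 5, Pcdha5, Pcdha12 and Pcdhga7 were higher (5.45%, against 2.28% of all genes) and Pcdhb6 and Pcdhb7 lower (3.64%, against 2.92% of all genes). The median log2 fold change, knockdown over control, was 0.04 over the 55 members and -0.01 over all genes tested, and 34 of the 55 lay above 0 (61.8%), where 48.1% of all genes did. In such bulk samples, fewer cells of a type and less RNA per cell cannot be told apart.

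The data bound the differences fairly closely. The 95% interval excluded changes beyond 1.5-fold, up or down, for 47 of the 55 members, and beyond 2-fold for 54. The exception to the wider limit was Pcdhb1, whose log2 fold change of 0.49 had an interval from -0.57 to 1.54. The closest bounds belonged to the abundant C-type genes. Pcdhgc3 averaged 117 ± 2.84 CPM in the knockdown and 117 ± 3.77 CPM in the control (SD, n = 3 each), with an interval from -0.19 to 0.19. Pcdhgc4 averaged 71.5 ± 4.91 CPM in the knockdown and 71.7 ± 5.99 CPM in the control, with an interval from -0.23 to 0.22. Pcdhgc5 had a log2 fold change of -0.09 ± 0.16 (SE).

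**Figure D3:**
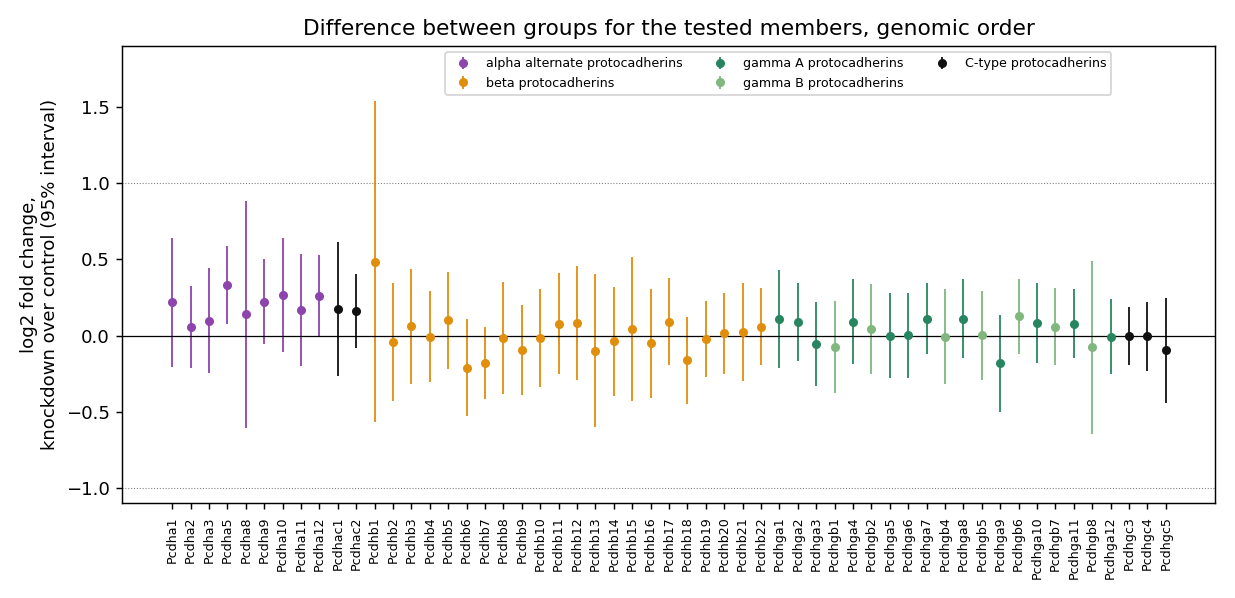
Log2 fold change, knockdown over control, with its 95% interval (y axis) for the 55 members tested, in genomic order (x axis) and coloured by class, with dotted lines at a 2-fold change. The 11 alpha cluster genes at the left lie above 0, and all intervals but that of Pcdha5 include 0.

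No alpha gene passed the test, but all 11 alpha genes tested had a log2 fold change above 0, from 0.06 to 0.33, with a median of 0.18. The CPM of the cluster summed to 190.8, 168.7 and 208.9 in knockdown replicates 1, 2 and 3, against 177.0, 166.5 and 154.2 in control replicates 1, 2 and 3. The sums overlapped, since knockdown replicate 2 lay below control replicate 1. Genes of 1 cluster share enhancers and libraries, so the 11 values are not independent of each other, and the pattern was singled out after the values were seen.

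Pcdha5 had the smallest p of all members. It was at 23.0, 20.9 and 23.5 CPM in knockdown replicates 1, 2 and 3, against 19.5, 17.5 and 16.5 CPM in control replicates 1, 2 and 3. All knockdown libraries were above all control libraries. The log2 fold change was 0.33 ± 0.12 (SE) with a 95% interval from 0.08 to 0.59, an unadjusted p of 0.0159 and an adjusted p of 1.00 in edgeR's test. Pcdha12 was at 20.9, 18.0 and 22.2 CPM in the knockdown, against 17.6, 17.6 and 15.9 CPM in the control, again without overlap. Its log2 fold change was 0.26 ± 0.12, with an unadjusted p of 0.0562 and an adjusted p of 1.00 in edgeR's test. Pcdhac2, the most abundant alpha gene, was at 44.2, 47.5 and 54.0 CPM in the knockdown and 45.3, 43.3 and 41.7 CPM in the control, which overlapped, and had 0.16 ± 0.11. Pcdhac1 had 0.18 ± 0.20. The groups overlapped in CPM but not in FPKM for Pcdha9. It was at 3.68, 3.41 and 3.90 FPKM in the knockdown and 3.28, 3.10 and 3.20 FPKM in the control.

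The alpha values leaned on 1 library of each group. Knockdown replicate 3 was the highest of the 6 libraries in 9 of the 11 alpha genes, and control replicate 3, the library with the fewest counts, was the lowest in 8. Without knockdown replicate 3, 8 of 11 alpha genes tested lay above 0, with a median log2 fold change of 0.12. Without control replicate 3 it was 9 of 12, with a median of 0.13 (and an unadjusted p of 0.0544 for Pcdha5). Without knockdown replicate 2 all 12 tested lay above 0, with a median of 0.32. With every library thinned to the smallest total, all 11 alpha genes tested still lay above 0, with a median of 0.18. On log2(FPKM + 0.1), where Pcdha4, Pcdha6 and Pcdha7 are included without their read-through genes, 11 of 14 alpha genes lay above 0, with a median of 0.07. The 3 below were Pcdha6, Pcdha7 and Pcdha8.

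With all 6 libraries the beta genes were spread evenly about 0. Of 22 beta genes tested, 10 were above and 12 were below the control, and their median log2 fold change was -0.01. This split also moved with single libraries. It was 5 above and 17 below without control replicate 3 (median -0.06). Without control replicate 1 it was 16 above and 6 below (median 0.07), and without knockdown replicate 2 it was 15 and 7 (median 0.02). The split was nearer even with any other library left out. Their CPM summed to 281.6, 258.7 and 279.4 in knockdown replicates 1, 2 and 3 and to 299.5, 277.4 and 252.1 in control replicates 1, 2 and 3, with overlap. The neighbouring genes Pcdhb7 and Pcdhb6 had the smallest p among them. Pcdhb7 was at 16.9, 17.3 and 17.3 CPM in the knockdown, against 18.9, 19.9 and 19.5 CPM in the control. Pcdhb6 was at 6.73, 6.70 and 6.90 CPM in the knockdown, against 8.10, 7.96 and 7.45 CPM in the control. In both genes all knockdown libraries were below all control libraries, with log2 fold changes of -0.18 ± 0.11 and -0.21 ± 0.14 (SE) and unadjusted p of 0.121 and 0.175 in edgeR's test (adjusted p = 1.00 for each). The most abundant beta genes, Pcdhb17 and Pcdhb20, had 0.09 ± 0.13 and 0.02 ± 0.12.

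The gamma genes differed little. Of 12 gamma A genes 9 were above and 3 were below the control (median log2 fold change 0.08), and of 7 gamma B genes 4 were above and 3 were below (median 0.00389). The CPM of the whole gamma cluster summed to 540.4, 562.5 and 599.2 in knockdown replicates 1, 2 and 3 and to 550.3, 577.8 and 545.3 in control replicates 1, 2 and 3, with overlap. In CPM, Pcdhga7 was the only gamma gene without overlap. It was at 20.3, 20.5 and 19.6 CPM in the knockdown and 18.5, 18.5 and 18.9 CPM in the control. In FPKM the groups overlapped for Pcdhga7, and the gamma gene without overlap was Pcdhga9, which was lower in the knockdown. The share of all genes without overlap in FPKM was not counted. Pcdhga9 was at 2.67, 2.84 and 3.11 FPKM in the knockdown and 3.62, 3.13 and 3.12 FPKM in the control. The log2 fold change of Pcdhga7 was 0.11 ± 0.10 (SE). Pcdhga9 had -0.18 ± 0.14, Pcdhgb6 had 0.13 ± 0.11, Pcdhgb1 had -0.07 ± 0.14, Pcdhga11 had 0.08 ± 0.10, Pcdhga10 had 0.09 ± 0.12 and Pcdhgb7 had 0.06 ± 0.11.

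Differences between libraries of the same group were in several genes larger than those between the groups. The coefficient of variation (CV) of CPM over the 6 libraries had a median of 9.43% over the 55 members and 12.6% over all genes tested. It was 10.9% over the 14501 genes tested with a mean of at least 1 CPM, a level that all tested members but Pcdhb1 reached. Counting error alone would give the members a median CV of 4.24%. In 36 of the 55 members the CV was more than 2 times that of counting, and among the alpha genes this held for 10 of 11. Pcdhgc3 had the lowest CV, 2.56%. Over all 55 members, control replicate 3 was the lowest library in 24 and knockdown replicate 2 in 14, and knockdown replicate 3 was the highest in 24.

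Pcdha8 varied most among the members whose mean reached 1 CPM, with a CV of 35.7% where counting gives 7.13%. It was at 6.20, 2.67 and 6.81 CPM in knockdown replicates 1, 2 and 3, against 6.56, 4.30 and 3.34 CPM in control replicates 1, 2 and 3, so both groups held high and low libraries. Pcdhgb8 (CV 23.7%) was at 6.96, 3.48 and 7.62 CPM in the knockdown, against 6.81, 6.59 and 5.68 CPM in the control. Its knockdown replicate 2 stood at 0.517 times the mean of the other 5 libraries. Pcdhb15 (CV 20.4%) was at 9.30, 5.60 and 7.50 CPM in the knockdown, against 8.88, 6.82 and 6.04 CPM in the control. Pcdhac1 (CV 19.9%) was at 8.64, 6.38 and 10.99 CPM in the knockdown, against 6.81, 7.93 and 8.34 CPM in the control. Knockdown replicate 2 was the lowest library in all 4 genes. None of them had an unadjusted p under 0.05 in edgeR's test, with log2 fold changes of 0.14 ± 0.34 (SE) for Pcdha8, -0.08 ± 0.26 for Pcdhgb8 and 0.04 ± 0.21 for Pcdhb15.

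**Figure D4:**
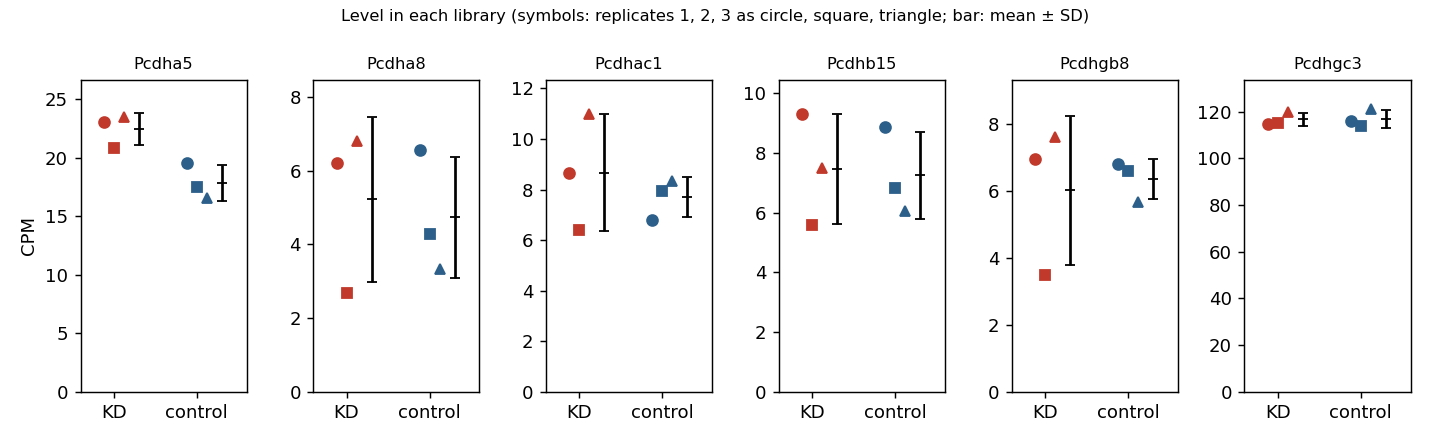
CPM in each library (y axis, from 0) of Pcdha5, of the 4 members with the largest CV and of Pcdhgc3, with knockdown (KD) left of control and black bars for mean ± SD (n = 3). Pcdhgc3 keeps between 114 and 121 CPM in all libraries, while the square of knockdown replicate 2 lies lowest in Pcdha8, Pcdhac1, Pcdhb15 and Pcdhgb8.

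The spread between libraries was also seen in whole classes. For the 9 alternate alpha genes tested, log2 CPM deviated from the mean of all 6 libraries by 0.18, -0.15 and 0.25 on average in knockdown replicates 1, 2 and 3, and 0.06, -0.08 and -0.25 in control replicates 1, 2 and 3. For the 22 beta genes it was 0.05, -0.10 and 0.04 in the knockdown and 0.10, 0.02 and -0.11 in the control. For the 12 gamma A genes it was -0.06, -0.000645 and 0.11 in the knockdown and -0.02, 0.02 and -0.05 in the control. Control replicate 3 was the lowest control library in all 5 classes, and knockdown replicate 3 the highest knockdown library in all but the beta genes.

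**Figure D5:**
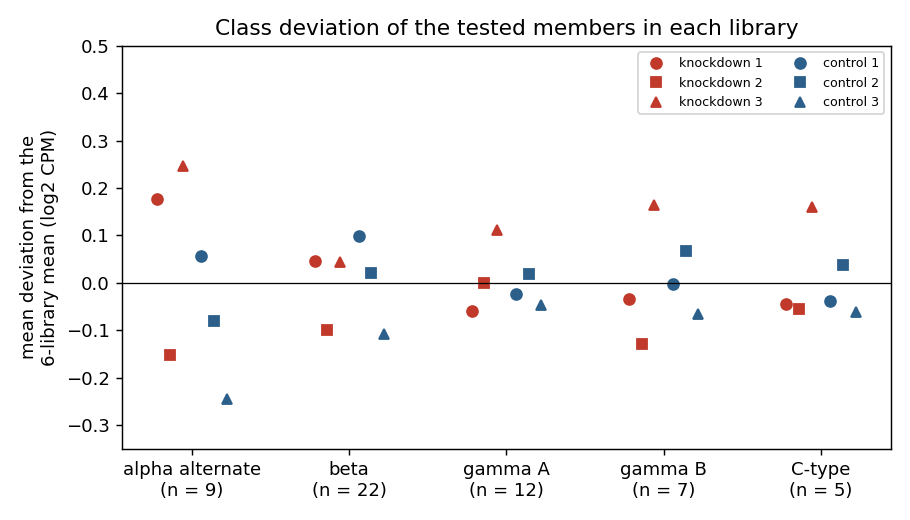
Mean deviation of each class from its 6-library mean in log2 CPM (y axis), by class with its number of tested genes (x axis), 1 symbol per library, knockdown left of control. The alternate alpha genes spread widest, from -0.25 in control replicate 3 to 0.25 in knockdown replicate 3, and the groups overlap in every class.

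The protocadherins outside the clusters were mostly higher per gene and did not differ at the threshold either. Of 12 such genes 11 were tested and 0 called, with 6 above the control, 5 below it and a median log2 fold change of 0.03. Pcdh10, an adhesion gene of the delta class, was the highest at 53.2 ± 3.57 FPKM in the knockdown and 51.0 ± 1.596 FPKM in the control (SD, n = 3 each). Pcdh8, a delta protocadherin linked to synapse turnover, had the smallest p, with a log2 fold change of 0.23 ± 0.14 (SE, unadjusted p of 0.123 and adjusted p of 1.00 in edgeR's test).

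Genes that act on the clusters or with their proteins were not called. Of the 11 genes of CTCF, cohesin and its loaders 3 were above the control and 8 below it (median log2 fold change -0.04). There the cohesin gene Smc3 had the smallest p, with -0.18 ± 0.21 (SE), and the cohesin gene Rad21 the highest level, 22.8 ± 2.75 FPKM in the knockdown and 23.7 ± 4.03 FPKM in the control (SD, n = 3 each). Of 14 tested genes of DNA methylation and silencing 6 lay above and 8 below, with a median of -0.01. Uhrf1, which brings the maintenance DNA methyltransferase to replicating DNA, had -0.29 ± 0.14 (unadjusted p of 0.0571, adjusted p of 1.00 in edgeR's test), and Trim28, a co-repressor gene, had 0.13 ± 0.13. Of 19 genes of signalling partners 10 lay above and 9 below, with a median of 0.00892. Wasf1, a gene of the WAVE complex that drives actin branching, had -0.22 ± 0.11, and the beta-catenin gene Ctnnb1 had 0.10 ± 0.10. Of 7 protease genes 6 lay above and 1 below. Psenen, which encodes a gamma-secretase subunit, had 0.08 ± 0.16 in counts. Its FPKM went the other way, with overlap, at 18.5 ± 1.25 in the knockdown and 24.0 ± 6.14 in the control (SD, n = 3 each). The histone methyltransferase gene Ehmt2, on the list of DNA methylation and silencing, was listed at 0 counts in all libraries. A listing at 0 does not by itself show absence, since Pcdha4 and Pcdha7 were at 0 counts with FPKM well above 0. That limit also applies to the cell type markers listed at 0 below.

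No marker of any cell type list was called in edgeR's test, and the part of other cells in the values of the protocadherins was not tested. Of the 10 dopamine neuron markers 2 were above the control and 8 below it (median log2 fold change -0.03), with the overlapping sums given above. All 8 oligodendrocyte markers tested of 9 were below the control, with sums between 289 and 371 CPM in the knockdown and between 299 and 469 CPM in the control. The smallest p among them was that of Myrf, a myelination regulator, with a log2 fold change of -0.62 ± 0.21 (SE, unadjusted p of 0.0143, adjusted p of 1.00 in edgeR's test). Of 6 microglia markers tested of 8, 1 was above and 5 below, with sums between 18.7 and 19.8 CPM in the knockdown and between 21.1 and 25.7 CPM in the control, which did not overlap, and Aif1 was listed at 0. Cd68, a lysosomal gene of phagocytes, had -0.39 ± 0.16 (unadjusted p of 0.0331, adjusted p of 1.00 in edgeR's test). Of 8 markers of dividing cells 2 were above and 6 below, with sums between 232 and 263 CPM in the knockdown and between 233 and 338 CPM in the control. The spindle checkpoint gene Bub1b had -0.35 ± 0.13 (unadjusted p of 0.0236, adjusted p of 1.00 in edgeR's test). Of 10 general neuron markers 3 were above and 7 below, with a median log2 fold change of -0.04. Of 6 serotonergic markers 3 were above and 3 below, with sums between 273 and 309 CPM in the knockdown and between 272 and 300 CPM in the control. For 6 endothelial markers (4 tested, Cldn5 listed at 0) the sums were between 17.1 and 21.0 CPM in the knockdown and between 16.9 and 20.8 CPM in the control. Of 7 markers of meningeal fibroblasts and mural cells tested of 8, 5 were above and 2 below, with a median log2 fold change of 0.04. The sums of all 8 were between 124 and 193 CPM in the knockdown and between 130 and 180 CPM in the control. The collagen gene Col1a1, with the smallest p of that list, had 0.35 ± 0.15 (unadjusted p of 0.0411, adjusted p of 1.00 in edgeR's test).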

How the data were processed

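Total RNA depleted of ribosomal RNA was made into strand-preserving libraries, per the labels' protocols, and sequenced as paired reads of 150 bases. The deposited counts are whole numbers per gene, 1 table per library. The deposited FPKM tables have Cufflinks' columns, per the file headers. The submitters' processing notes name GRCm38 (mm10), bcl2fastq 2.20, Cufflinks 2.2.1 and DESeq2, while the aligner, counter and strand option were not given in the sources used here. Genes that overlap or share exons are uncertain for that reason. Sequences of these genes are not printed here.

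Counts were tested with edgeR 4.0.16 (R 4.3.3) by the quasi-likelihood test with the group alone in the design, after filterByExpr and TMM scaling, with Benjamini-Hochberg adjustment over 17439 genes and a threshold of 0.05. The fit was tested on simulated counts, with changes set in genes of at least 1 CPM. It called 39.3% of genes changed 1.5-fold, 84% of those changed 2-fold and 0.0688% of unchanged genes. Intervals are at 95% and cover the spread between libraries. Levels between genes are compared in deposited FPKM, and all 348 FPKM values of the members had the status OK. FPKM entries listed more than once were left out. No library was a copy of another: between libraries of a group, chi-square over its degrees of freedom was 12.8 to 91.4, where sampling noise gives about 1.

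The members and gene lists were chosen with earlier results of these data known. Named members were the 5 C-type genes, in each other class the 2 with the highest FPKM and the 2 with the smallest p, the 4 with the largest CV at a mean of at least 1 CPM, and in each of the lists of related genes the gene with the smallest p and the one with the highest FPKM. The cell type lists are given by counts and sums, with the gene of smallest p named where its unadjusted p was under 0.05. A gene of the protease list that this rule names is not reported here. Other genes were named after their values were seen. Alternatives were other scalings, filters, DESeq2 1.42.0, limma 3.58.1 (voom, and log2 FPKM with a pseudocount of 0.1 or 1), a replicate block and leaving out each library. Thinning was added after seeing the data.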

Additional observations from a re-analysis of the deposited data

How the results depend on the processing

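No clustered protocadherin was called under any of the 17 alternatives run or with thinned libraries. Over all genes, 11 were called without the low-count filter (5 higher and 6 lower) and 1 by DESeq2, against 0 with the filter and edgeR. Leaving out each library in turn left both counts at 0, and the median log2 fold change of the members between -0.01 and 0.08. It was -0.01 without control replicate 3 (26 of 56 members above the control) and -0.01 without knockdown replicate 3 (26 of 54). With all 6 libraries it ran from 0.02 to 0.06 over the other settings. Of 378 values of named members under the alternatives, 376 moved by less than their standard error and 28 changed sign, and none was called. The exceptions were Pcdhgb8, at 0.19 without knockdown replicate 2, and Pcdha5, at 0.20 with a pseudocount of 1 FPKM.

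Libraries with the same replicate number were compared, though the labels do not say that a number marks a culture. The correlation of their deviations from the group means over all genes was 0.22, 0.23 and 0.04 for numbers 1, 2 and 3, and knockdown replicate 3 correlated best with control replicate 1 (0.07), so the numbers were not taken to pair the libraries. With the replicate number as a block 0 genes and 0 members were called, 258 genes had an unadjusted p under 0.05 against 191 without it, and the median of the members was 0.04. Depth limits Pcdhb1, which had at most 15 counts in a library.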
